A study of Mus musculus with 16 samples.

Results

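Insulin and insulin-like growth factor (IGF) signalling was followed through 10 genes in whole mouse kidneys: the growth factor Igf1, the receptors Igf1r and Insr, the adaptors Irs1 and Irs2, the transcription factors Foxo1 and Foxo3, and the binding proteins Igfbp3, Igfbp4 and Igfbp5. They were taken by gene name from the 30277 genes of the deposited expression table, and 10 of 10 were found. The 4 groups of 4 libraries were male KlKl, male control, female KlKl and female control. All animals were C57BL/6J, onto which the Klotho mutation had been backcrossed, and were 46 to 59 days old. KlKl mice carry 2 copies of the recessive Kl allele and had renal failure per the labels. Controls had healthy kidneys, but were not of 1 genotype. Heterozygous controls (+/Kl) were all 4 females and males 1 and 2, and males 3 and 4 were +/+. Library names begin with CFK for replicates 1 and 2 and with CFdk for 3 and 4. Among control males this name series and the genotype therefore coincide. The allele is present in every cell from conception, so the kidney and the rest of the body are affected together. The labels call the libraries replicates and give each its own library name, and p-values measure the spread between these libraries.

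Insulin and IGF-1 bind related receptor tyrosine kinases on the cell surface. The receptors phosphorylate the IRS adaptors, which recruit phosphoinositide 3-kinase and activate the kinase AKT. AKT phosphorylates FOXO factors and keeps them out of the nucleus, so that FOXO target genes are transcribed when insulin and IGF signals are low. In the kidney the pathway is known for growth of the organ and for control of glucose production in the proximal tubule. IGF binding proteins carry IGFs in blood and tissue and limit or prolong their access to the receptor. Klotho, the product of Kl, helps the bone hormone FGF23 bind its receptor in kidney tubules, and the secreted form of Klotho has been described as an inhibitor of insulin and IGF-1 signalling in mice.

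None of the 10 genes lies on chromosome 5, which carries Kl. Igf1 (ENSMUSG00000020053) spans positions 87694127 to 87772905 of chromosome 10, plus strand, in the deposited table, whose build is mm39 per the submitters' processing notes. Irs1 (ENSMUSG00000055980) spans positions 82210822 to 82269138 of chromosome 1, minus strand. Igf1r lies on chromosome 7, Insr and Irs2 on chromosome 8, Foxo1 on chromosome 3, Foxo3 on chromosome 10, Igfbp5 on chromosome 1, and Igfbp3 and Igfbp4 on chromosome 11. Each is protein coding.

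The stretches of 250 bases before the RefSeq start of Igf1 and of Irs1 are printed because these genes held their difference between control males and females in every setting that tested them, in opposite directions. Capitals mark CG dinucleotides, the sites of DNA methylation. The sequences are RefSeq's, build GRCm38.p6, 5′ to 3′ on the gene's own strand. The gene positions given above are on a different build. Whether each window lies directly before the start of the gene in the deposited table, or before a later start within it, was not tested.
Igf1, chr10:87860861-87861110, plus strand: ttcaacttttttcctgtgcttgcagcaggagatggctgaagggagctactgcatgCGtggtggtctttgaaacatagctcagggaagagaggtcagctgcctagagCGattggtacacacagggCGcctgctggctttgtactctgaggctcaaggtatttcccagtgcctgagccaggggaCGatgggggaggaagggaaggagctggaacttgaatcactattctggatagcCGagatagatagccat
Irs1, chr1:82291440-82291689, minus strand: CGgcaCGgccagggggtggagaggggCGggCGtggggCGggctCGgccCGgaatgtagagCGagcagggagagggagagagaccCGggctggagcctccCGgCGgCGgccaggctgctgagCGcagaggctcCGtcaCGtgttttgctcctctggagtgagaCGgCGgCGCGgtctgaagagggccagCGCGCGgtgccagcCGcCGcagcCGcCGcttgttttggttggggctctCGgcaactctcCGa
The Irs1 stretch held 28 CG dinucleotides and 72.4% G or C, and the Igf1 stretch held 5 and 52.8%. These values describe the printed windows only, and other possible starts of the genes were not examined. The median over 32851 RefSeq promoters of this length was 6 CG dinucleotides, with quartiles of 2 and 16. Sequences were matched for 9 of the 10 genes, all but Insr. Over those 9 the CG count ran from 5 in Igf1 to 42 in Igf1r. A set of 3 motifs was searched on both strands: AGAACA, a core half-site of androgen and glucocorticoid receptors; TTCNNNGAA, bound by STAT5 below the growth hormone receptor; and GTAAACA, bound by FOXO factors. The motifs occurred in 16.1%, 7.02% and 3.17% of all 32851 promoters, in that order, and in 0 of the 9 windows here.

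Recovered depth was 13025469 to 20102503 reads in male libraries and 8207664 to 14501856 reads in female libraries. Both sexes used sample-sheet numbers 17 to 24, so sex and sequencing run may coincide, and sex, run and depth cannot be told apart in this design. Kl fell in KlKl kidneys by 3.83 on the log2 scale in males (limma, adjusted p = 0.0067) and by 4.34 in females (adjusted p = 0.00109), and separated KlKl from control libraries in each sex. The defining markers of kidney cell types were all detected, and of the 13 cell type lists only that of the adrenal cortex had genes at 0 reads throughout a group. Female control 3 had the fewest reads and the highest share of ribosomal RNA in its TPM, 15.2%, and was the oldest control, at 57 days. It and male KlKl 3, which had the highest scaling factor, 1.457, stand apart, and results are given without them where that matters. In bulk tissue, fewer cells of a type and less RNA per cell cannot be told apart.

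All values below are the deposited TPM divided by a median-ratio factor per library, called scaled TPM, unless stated. The deposited TPM divide reads by the whole gene, introns included, so they do not order genes by transcript level. For that order, recovered reads were turned into RPKM over the exon length of each gene. The counting rule is not given, so these reads may include intronic ones, which would raise long genes on this scale. On this per-exon scale Igfbp4 was the most abundant member, with a mean of 193.5 over the 16 libraries (range 74.3 to 279.2), followed by Igfbp5 at 75.4 (43.4 to 110.3) and Igfbp3 at 56.9 (34.2 to 79.1). Igf1r averaged 25.1, Foxo3 11.7, Insr 9.89, Foxo1 8.17, Irs2 4.35, Igf1 2.34 and Irs1 0.514 on the same scale. Igfbp4 lay above Igfbp5, Igfbp3 above Igf1r, Igf1r above Foxo3 and Igf1 above Irs1 in 16 of 16 libraries. The order of the other neighbours held in fewer libraries: Igfbp5 lay above Igfbp3 and Foxo3 above Insr in 12 each, Insr above Foxo1 in 13, Irs2 above Igf1 in 14 and Foxo1 above Irs2 in 15. On this scale each binding protein thus lay above the IGF-1 receptor, and that receptor above its ligand, in each library.

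**Figure D1:**
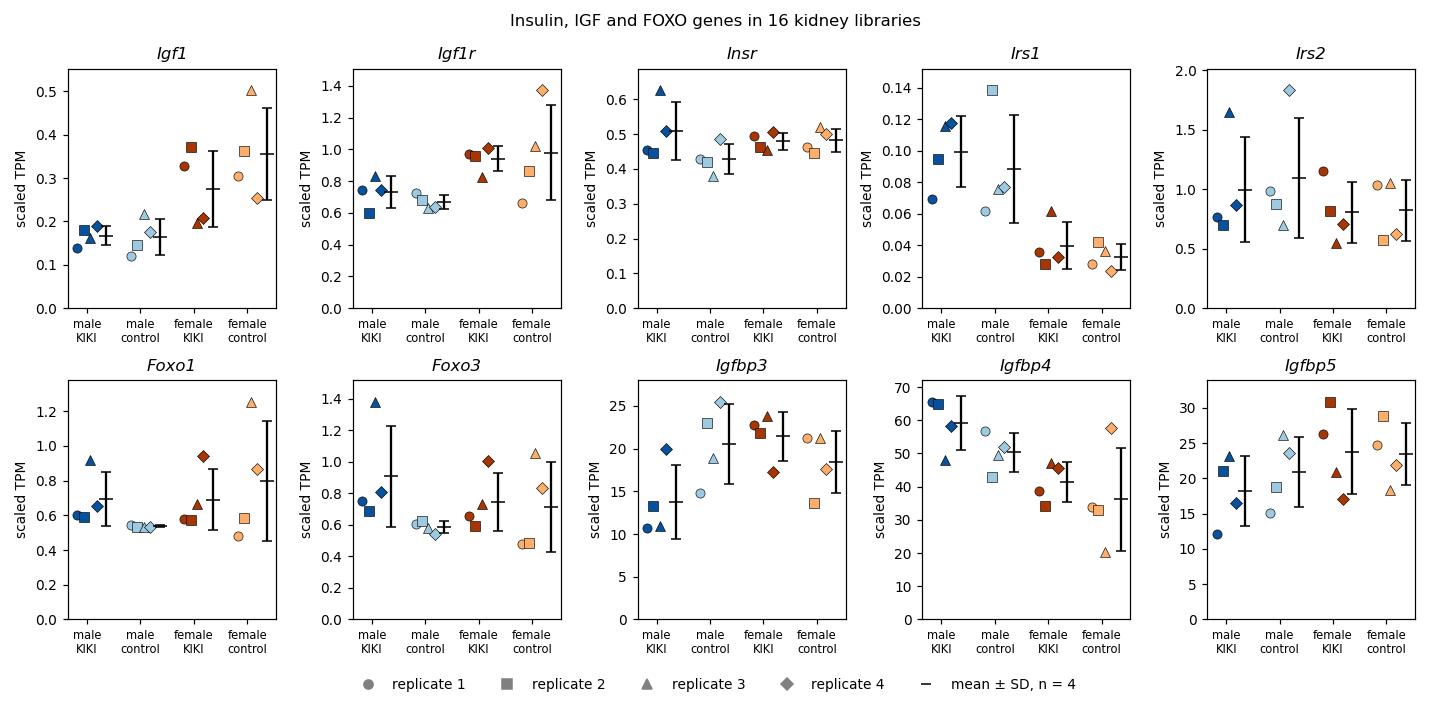
Scaled TPM (linear axis from 0) of the 10 genes in each of the 16 libraries, with male KlKl, male control, female KlKl and female control from left to right, replicate number as symbol, and the mean ± SD of 4 libraries as a bar. Igf1 is lower and Irs1 higher in all male than in all female libraries of the same genotype, and KlKl and control libraries overlap for every gene except Foxo1 and Foxo3 in males.

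The comparison of KlKl with control kidneys asks what renal failure from the Kl mutation does to these genes. None of the 10 passed in males, where 0.0344% of 17435 tested genes passed, nor in females, where 0.0115% passed (limma moderated test, Benjamini-Hochberg adjusted p under 0.05). In males 1 of the 10, Igfbp3, had an unadjusted p under 0.05, next to 5.38% of all genes, and in females 0 of the 10, next to 3.73%. For the mean of both sexes 0 of 10 passed, next to 0.0516% of all genes, and 0 of 10 had an unadjusted p under 0.05, next to 6.11%. For the difference of the male and female effects 0 of 10 passed, next to 0%, and 1 of 10 had an unadjusted p under 0.05, next to 2.79%. The differences of the 10 genes had a median of 0.12 in males and 0.00 in females on the log2 scale, next to -0.01 and 0.00 over all genes. With 4 libraries a group the 95% intervals of the 10 genes together spanned -1.06 to 1.08 in males and -0.77 to 0.78 in females.

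Igf1, which the kidney makes for local use while the liver supplies the blood, had 0.14, 0.179, 0.161 and 0.19 scaled TPM in male KlKl libraries 1 to 4, against 0.12, 0.146, 0.217 and 0.176 in male controls 1 to 4. Those ranges overlap throughout. In female KlKl libraries it had 0.327, 0.371, 0.196 and 0.208 scaled TPM, against 0.304, 0.362, 0.503 and 0.255 in female controls. The female KlKl group holds the lower values, but its highest library lies above 3 of the 4 controls. The log2 difference was 0.03 in males (95% interval -0.41 to 0.48) and -0.32 in females (-0.77 to 0.13; limma adjusted p = 0.969). Igf1r, the IGF-1 receptor, differed by 0.11 in males (-0.25 to 0.48) and -0.01 in females (-0.37 to 0.35).

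Insr, the insulin receptor, had 0.454, 0.445, 0.626 and 0.507 scaled TPM in male KlKl libraries, against 0.429, 0.42, 0.379 and 0.486 in male controls. Only male control 4 reached into the KlKl range. The log2 difference was 0.22 in males (SE 0.11, limma adjusted p = 0.962) and -0.01 in females (SE 0.11), where the 8 libraries lay between 0.447 and 0.52. Irs1 and Irs2, the adaptors that link both receptors to phosphoinositide 3-kinase, differed in males by 0.13 (-0.22 to 0.47) and -0.12 (-0.82 to 0.58). Irs2, itself a FOXO target gene in liver, had the largest standard error of the 10 genes, 0.33. Its highest scaled TPM were 1.65 in male KlKl 3 and 1.83 in male control 4, and the other male libraries lay between 0.695 and 0.985.

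Foxo3, a FOXO factor of stress resistance and autophagy, had 0.754, 0.686, 1.38 and 0.808 scaled TPM in male KlKl libraries, against 0.604, 0.622, 0.581 and 0.54 in male controls. Foxo1, the FOXO factor known for gluconeogenesis, had 0.602, 0.59, 0.921 and 0.654 scaled TPM in male KlKl libraries, against 0.545, 0.534, 0.534 and 0.534 in male controls. For both genes every KlKl male lay above every control male, which held for 4.55% of all tested genes in either direction. Neither passed: the log2 difference was 0.54 for Foxo3 (SE 0.25, limma adjusted p = 0.915) and 0.32 for Foxo1 (SE 0.24, adjusted p = 1.00). Without male KlKl 3 and female control 3 the differences in males were 0.33 for Foxo3 and 0.18 for Foxo1.

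In females the groups overlapped for all 10 genes, FOXO genes included, next to 2.06% of all genes without overlap. Foxo3 had 0.653, 0.591, 0.731 and 1.01 scaled TPM in female KlKl libraries, against 0.478, 0.485, 1.06 and 0.834 in female controls, a log2 difference of 0.11 (SE 0.25). Foxo1 had 0.578, 0.572, 0.663 and 0.944 in female KlKl libraries, against 0.484, 0.583, 1.26 and 0.865 in female controls, a difference of -0.14 (SE 0.24). Without single libraries the female difference ran from -0.05 to 0.31 for Foxo3 and from -0.33 to 0.10 for Foxo1, so its direction is not settled. The high female values of both genes came from the same libraries, KlKl 4 and controls 3 and 4.

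**Figure D2:**
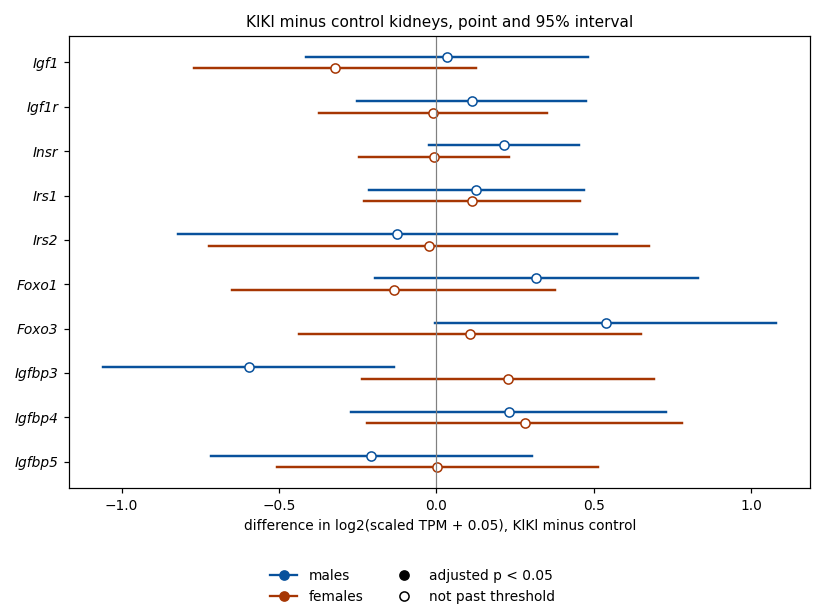
Difference in log2(scaled TPM + 0.05), KlKl minus control, for each of the 10 genes in males and females, with 95% intervals from the limma fit of 16 libraries. No gene passes an adjusted p of 0.05, and only the interval of Igfbp3 in males, -1.06 to -0.13, lies apart from 0.

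Igfbp3, the main carrier of IGFs in blood and a product of endothelial cells in many organs, showed the largest difference of the 10 in males. It had 10.7, 13.3, 11 and 19.9 scaled TPM in male KlKl libraries, against 14.9, 23, 18.9 and 25.5 in male controls. Male KlKl 1, 2 and 3 lay below every control, and male KlKl 4 lay above male controls 1 and 3. The log2 difference in males was -0.60 (SE 0.22, limma adjusted p = 0.775). Within library-name series it was -0.63 in CFK and -0.57 in CFdk, with 2 libraries a group each. In female KlKl libraries Igfbp3 had 22.7, 21.9, 23.9 and 17.3 scaled TPM, against 21.2, 13.6, 21.3 and 17.7 in female controls, a log2 difference of 0.23 (SE 0.22). The male effect minus the female effect was -0.82 (SE 0.31, 95% interval -1.48 to -0.17), which did not pass across all genes (limma adjusted p = 1.00). The summed scaled TPM of 8 endothelial markers ran from 8.85 to 11.98 in male KlKl and from 9.16 to 13.5 in male control libraries, and 0 of the 8 passed. The part of endothelial RNA in the Igfbp3 difference was not tested.

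Igfbp4, which binds IGFs and is cleaved by the protease PAPP-A to release them, differed by 0.23 in males (95% interval -0.27 to 0.73) and 0.28 in females (-0.22 to 0.78) on the log2 scale. Igfbp5, which is made by stromal and epithelial cells and binds extracellular matrix, differed by -0.21 in males (-0.72 to 0.30) and 0.00 in females (-0.51 to 0.51).

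The rest of the pathway gave the same count in the renal failure comparisons. Of 87 listed genes in 7 lists, 84 were tested, and 0 of the 84 passed in males, in females, in the mean of both sexes or in the difference between the sexes. The lists cover ligands and receptors, other IGF binding proteins and their proteases, adaptors and kinases, inhibitors, other FOXO factors and their regulators, FOXO target genes, and growth hormone signalling. Of 22 FOXO target genes 17 had a positive difference in males and 15 in females, with list medians of 0.08 and 0.06 next to -0.01 and 0.00 over all genes. Of 5 growth hormone signalling genes 0 had a positive difference in females, with a median of -0.40, and 2 did in males, with a median of -0.02. In male KlKl kidneys the 5 erythrocyte markers summed to 65.9 to 399.2 scaled TPM, against 10.1 to 122.8 in male controls. In females they summed to 18.3 to 60.3 in KlKl and 3.73 to 152.8 in control libraries, and 0 of 5 passed in either sex. The 8 macrophage and dendritic cell markers summed to 24.9 to 41.5 in male KlKl and 23.6 to 33.8 in male control libraries, and to 34.9 to 40.5 in female KlKl against 26.9 to 31.1 in female control libraries. The female sums did not overlap, 6 of the 8 differences were positive in each sex, and 0 of 8 passed. The part of these cells in the differences of the 10 genes was not tested. Over 13 cell type lists 0 of 69 tested markers passed in either sex.

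The comparison of males with females asks how sex acts on these genes, in kidneys with and without renal failure. It gave calls for 2 of 10 genes in KlKl kidneys, next to 26.2% of all genes, and for 3 of 10 in controls, next to 39.3%. In controls Irs1 was higher in males and Igf1 and Igf1r were lower, next to 21% and 18.2% of all genes called higher and lower. In KlKl kidneys Irs1 was higher in males and Igfbp3 lower, next to 13.9% and 12.3%. The shares of members called, 20% and 30%, are near those of all genes and are no result about the members as a set. Scaling bears on these calls: on the deposited scale the median of all genes lay 0.25 higher in males among controls and 0.36 among KlKl kidneys. On that scale 6229 of 7355 called genes were higher in control males, against 3668 of 6849 after scaling, and 7285 of 7715 were higher in KlKl males, against 2431 of 4570 after scaling.

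Among controls Igf1 was lower in males than in females. It had 0.12, 0.146, 0.217 and 0.176 scaled TPM in male controls, against 0.304, 0.362, 0.503 and 0.255 in female controls. The highest male control lay below the lowest female control, as was so, in either direction, for 36.7% of all genes. The log2 difference was -0.90 (SE 0.21, limma adjusted p = 0.00419). The pseudocount of 0.05 shrinks this difference, and the group means were 0.165 scaled TPM in males and 0.356 in females. With the pseudocount the difference was -1.06 in the CFK and -0.74 in the CFdk libraries. The CFdk control males were +/+ and the females +/Kl, so the latter value mixes sex with genotype. In male KlKl libraries the range was 0.14 to 0.19 scaled TPM, against 0.196 to 0.371 in female KlKl libraries. These ranges did not overlap either, but female KlKl 3 and 4 lay close to the males and the difference of -0.55 did not pass (SE 0.21, adjusted p = 0.0676). Within CFK it was -0.93 and within CFdk -0.16. Every library held at least 193 recovered reads of Igf1. With limma voom on recovered reads the KlKl difference was -0.67 and passed (adjusted p = 0.0416), and on the deposited scale it was -0.18 (adjusted p = 0.536).

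Irs1, the least abundant member, was higher in males of both genotypes. It had 0.0692, 0.0948, 0.116 and 0.118 scaled TPM in male KlKl libraries, against 0.0359, 0.0283, 0.0614 and 0.0326 in female KlKl libraries. It had 0.062, 0.138, 0.0758 and 0.0772 in male controls, against 0.0278, 0.0419, 0.0362 and 0.0234 in female controls. Every male lay above every female of its genotype, although female KlKl 3 came close to male KlKl 1. The log2 difference was 0.74 in KlKl kidneys (SE 0.16, limma adjusted p = 0.00516) and 0.72 in controls (SE 0.16, adjusted p = 0.00308). These values are near the pseudocount of 0.05, which shrinks them: with voom on recovered reads the differences were 1.34 and 1.40. Within name series the differences with the pseudocount ran from 0.67 to 0.80, where the CFdk controls differ in genotype as well as sex. They rest on few reads: 81 to 130 a library in male KlKl against 25 to 51 in female KlKl, and 74 to 159 in male control against 17 to 36 in female control kidneys.

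The gene model Gm9747 lies on the opposite strand within Irs1, at positions 82210833 to 82213655, and had 126 to 280 recovered reads a library, more than Irs1. The library kit keeps strand, but whether counting used it is not given in the sources used here. Gm9747 was lower in male than in female controls by a log2 difference of -0.80 (limma adjusted p = 0.0065), a call lost on the deposited scale (-0.47, adjusted p = 0.0812). In KlKl kidneys it differed by -0.50 (adjusted p = 0.0791), and by -0.05 on the deposited scale. What reads from the opposite strand add to Irs1 was not tested.

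Igf1r had 0.724, 0.683, 0.631 and 0.638 scaled TPM in male controls, against 0.66, 0.863, 1.02 and 1.37 in female controls. Female control 1 lay within the male range and female control 4 stood highest. The log2 difference was -0.47 (SE 0.17, limma adjusted p = 0.0388), with -0.10 within CFK and -0.85 within CFdk. Only the CFK controls were all +/Kl, and in CFdk the males were +/+, so sex and genotype cannot be told apart there. Without female control 4 it was -0.30 and did not pass (adjusted p = 0.117), and it was -0.15 on the deposited scale (adjusted p = 0.509). In KlKl kidneys the difference was -0.35 after scaling (SE 0.17, adjusted p = 0.138), with 0.597 to 0.834 scaled TPM in males against 0.828 to 1.01 in females, and 0.08 on the deposited scale. Insr, its closest relative, differed by 0.07 in KlKl kidneys and -0.16 in controls, and neither passed. On the deposited scale Insr differed by 0.49 in KlKl kidneys and passed (adjusted p = 0.02).

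Igfbp3 was lower in male than in female KlKl kidneys, with the library values given above, by a log2 difference of -0.68 (SE 0.22, limma adjusted p = 0.0335). Male KlKl 4, at 19.9, lay above female KlKl 4, at 17.3, and the other 3 males lay below all females. In controls the difference was 0.15 (SE 0.22, adjusted p = 0.61). The change of the sex difference with genotype is the same quantity as the -0.82 given for the effects of renal failure, which did not pass. The call in KlKl kidneys was lost without any 1 of 6 libraries (male KlKl 1, 2 or 3, or female KlKl 1, 2 or 3), with adjusted p up to 0.0935, and on the deposited scale (difference -0.22).

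Igfbp4 tended the other way without passing. It had 65.6, 64.9, 48.1 and 58.2 scaled TPM in male KlKl libraries, against 38.7, 34.2, 47.1 and 45.6 in female KlKl libraries, which did not overlap, as for 31.4% of all genes. The log2 difference was 0.52 (SE 0.23, limma adjusted p = 0.115). In controls it was 0.57 (SE 0.23, adjusted p = 0.0675), with female control 4, at 57.6, above all 4 males, at 42.9 to 56.8. Without female control 4 the control difference was 0.82 and passed (adjusted p = 0.00499), and without female control 3 it was 0.32 (adjusted p = 0.191). On the deposited scale Igfbp4 passed in both genotypes, with differences of 0.98 in KlKl kidneys and 0.91 in controls.

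Foxo1, Foxo3, Irs2 and Igfbp5 passed in neither sex comparison after scaling. Foxo3 differed by 0.24 in KlKl kidneys and -0.19 in controls, and Foxo1 by 0.01 and -0.44. Without female control 1 the Foxo1 difference in controls was -0.63 and passed (adjusted p = 0.0395), and without female control 3 it was -0.20 (adjusted p = 0.443). On the deposited scale Foxo3 differed by 0.68 in KlKl kidneys and passed (adjusted p = 0.0387).

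**Figure D3:**
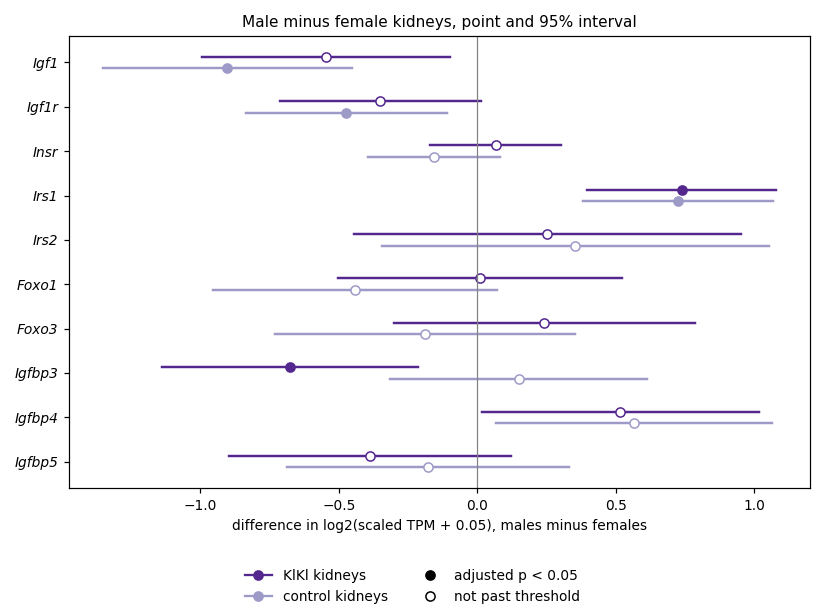
Difference in log2(scaled TPM + 0.05), males minus females, for each of the 10 genes in KlKl and control kidneys, with 95% intervals from the same limma fit. Filled points pass an adjusted p of 0.05: Irs1 in both genotypes (0.74 and 0.72), Igfbp3 in KlKl (-0.68), and Igf1 (-0.90) and Igf1r (-0.47) in controls.

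Around the members, 19 of 84 tested pathway genes differed between the sexes in KlKl kidneys, 18 higher and 1 lower in males, and 28 of 84 in controls, 20 higher and 8 lower. These shares, 22.6% and 33.3%, lie below the 26.2% and 39.3% of all genes and are no result about the pathway as a set. On the deposited scale the counts were 49 and 44, with 0 and 3 lower in males, next to 7715 and 7355 of all 17435 genes. The pathway shares lie above those of all genes on that scale, so this relation depends on the scaling. Of the 19 calls in KlKl kidneys 8 were kept without each single library and on the deposited scale, those of Akt2, G6pc, Gabarapl1, Igf2r, Phlpp2, Rptor, Stat5a and Stk4. Of the 28 in controls 14 were kept in this way, those of Akt2, Crebbp, Foxo4, Gabarapl1, Htra1, Igf2r, Map1lc3b, Mtor, Phlpp1, Phlpp2, Ptpn1, Rptor, Stc1 and Stk4. All other pathway calls given below were lost without at least 1 library or on the deposited scale. Igf2r, which clears IGF-2 from the cell surface, was higher in males by 0.91 in KlKl kidneys (limma adjusted p = 0.000257) and 1.15 in controls (adjusted p = 2.4e-05). It had 0.834 ± 0.087 scaled TPM in male KlKl and 0.419 ± 0.040 in female KlKl, and 0.984 ± 0.090 in male control against 0.417 ± 0.061 in female control kidneys (SD, n = 4). Ghr, the growth hormone receptor, whose signal induces Igf1 in liver, was higher in males by 0.76 in KlKl kidneys and 0.79 in controls. Leaving out single libraries ended these Ghr calls, with adjusted p up to 0.121 in KlKl kidneys and 0.083 in controls. The count in KlKl kidneys was 9 to 11 without male KlKl 1, male KlKl 2, female KlKl 1 or female KlKl 2, and 29 without female control 3.

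Among kinases below the receptors, Mtor and Akt2 were higher in males by 0.64 and 0.47 in KlKl kidneys and by 0.98 and 0.57 in controls. Rptor, the subunit that recruits substrates to mTOR complex 1, was higher by 0.35 and 0.42. In controls Sgk1, a kinase of sodium reabsorption that is activated like AKT, was lower in males by a difference of -1.35, with 0.538 ± 0.16 against 1.56 ± 0.78 scaled TPM. Pik3ca, Eif4ebp1 and Rps6kb1 were lower by differences of -0.43, -0.42 and -0.32, none of which passed on the deposited scale. Of the inhibitors, Ptpn1, a phosphatase that removes phosphate from the insulin receptor, was higher in males by 0.66 in KlKl kidneys and 0.74 in controls. Phlpp1 and Phlpp2, phosphatases of AKT, and Inppl1, a lipid phosphatase that opposes phosphoinositide 3-kinase, were higher in control males by 0.27, 0.44 and 0.64. Inppl1 had 1.1 scaled TPM in female control 3, next to 2.59 to 2.90 in the other female controls and 3.31 to 3.59 in male controls, and without that library its difference was 0.32 (adjusted p = 0.00682).

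The protease and binding protein list gave Htra1 higher in males (0.76 in KlKl kidneys and 0.96 in controls) and Stc1 lower (-1.71 and -1.69). Without scaling Stc1 differed by -1.30 in KlKl kidneys, which did not pass (adjusted p = 0.0586), and by -1.37 in controls (adjusted p = 0.0495). Stc1 encodes stanniocalcin, an inhibitor of PAPP-A, and Pappa itself was lower in control males by a difference of -0.50, but not on the deposited scale (-0.34, adjusted p = 0.0656). Foxo4, the third FOXO factor tested, was higher in males by 0.52 in KlKl kidneys and 0.78 in controls, and Stk4, a kinase that phosphorylates FOXO factors, by 0.35 and 0.36. The Foxo4 call in KlKl kidneys was lost without any single KlKl library (limma adjusted p up to 0.0878). Crebbp, an acetyltransferase that uses FOXO factors as substrates, was lower in control males (-0.84). Of 22 FOXO target genes 5 were higher in males in KlKl kidneys and 6 in controls, and 0 were lower in either. These are 22.7% and 27.3%, next to 13.9% and 21% of all genes called higher. On the deposited scale the counts were 15 and 11, next to 7285 and 6229 of all 17435 genes called higher. Of those 22, G6pc and Pck1, the enzymes of glucose output made by the proximal tubule, were higher by 1.24 and 1.02 in KlKl kidneys and by 0.81 and 0.90 in controls. Gabarapl1, an autophagy gene, was higher by 0.70 and 0.87. Socs2, a growth hormone target and inhibitor, was lower in control males (-1.38), with 3.02 scaled TPM in female control 3 next to 0.742 to 1.42 in the other female controls. Without that library the Socs2 difference was -1.02 (adjusted p = 0.0377), and on the deposited scale -1.05, which did not pass (adjusted p = 0.0586). Stat5a and Stat5b were higher in KlKl males (0.51 and 0.33).

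Some markers of cell types also differed between the sexes. Of all genes 12.3% were called lower in males in KlKl kidneys and 18.2% in controls, and 13.9% and 21% higher. Of 8 stromal markers 4 were lower in males in KlKl kidneys and 6 in controls, with list medians of -0.71 and -0.91. Without scaling 1 and 3 of the 8 were lower, with medians of -0.27 and -0.58. Their summed scaled TPM ran from 8.22 to 12.7 in male KlKl against 15.4 to 29.2 in female KlKl, and from 7.31 to 10.2 in male control against 14.6 to 25.8 in female control libraries. Of 8 proximal tubule markers 4 were higher in males in KlKl kidneys and 5 in controls, with medians of 0.72 and 0.91. On the deposited scale 6 and 7 of the 8 were higher, next to 7285 and 6229 of all 17435 genes. Of 8 endothelial markers 3, Flt1, Tek and Emcn, were lower in males in both genotypes, but the list did not share a direction. In controls 5 of the 8 differences were positive, with a list median of 0.12. In KlKl kidneys 2 of the 8 were positive, with a median of -0.19. The direction of the 3 calls also rests on the scaling. Without scaling only Flt1 in controls was still lower (-0.42, adjusted p = 0.0308), and the list gave 2 higher and 0 lower in KlKl kidneys and 4 higher and 1 lower in controls. Over all 13 cell type lists 16 of 69 tested markers were called in KlKl kidneys and 22 of 69 in controls. These shares lie below the 26.2% and 39.3% of all genes and are no result about the markers as a set. The other cell type lists gave 5 and 8 of those calls. No gene of the stromal, proximal tubule or endothelial lists was at 0 reads throughout a group, and the part of these cell types in the sex differences of Igf1, Irs1, Igf1r and Igfbp3 was not tested.

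Across the 16 libraries Foxo1 and Foxo3 varied together. Of 45 pairs of members theirs was the 1 pair whose correlation passed by both measures, with Pearson's r = 0.865 (two-sided permutation p = 0.00012, adjusted 0.0027) and Spearman's rho = 0.885 (permutation p = 1e-05, the smallest the permutations can give, adjusted 0.00045). Without female control 3 and female KlKl 4, the libraries farthest from the median of Foxo1, r was 0.881. By Pearson's r alone 6 of the 45 pairs passed. Igf1 and Igfbp4 were among them (r = -0.839, permutation adjusted p = 0.0027), with rho = -0.706 (permutation adjusted p = 0.0553). Male KlKl 3 was the highest of 8 males for Igf1r, Insr, Foxo1 and Foxo3, and female control 3 the highest of 8 females for Igf1, Insr, Foxo1 and Foxo3.

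**Figure D4:**
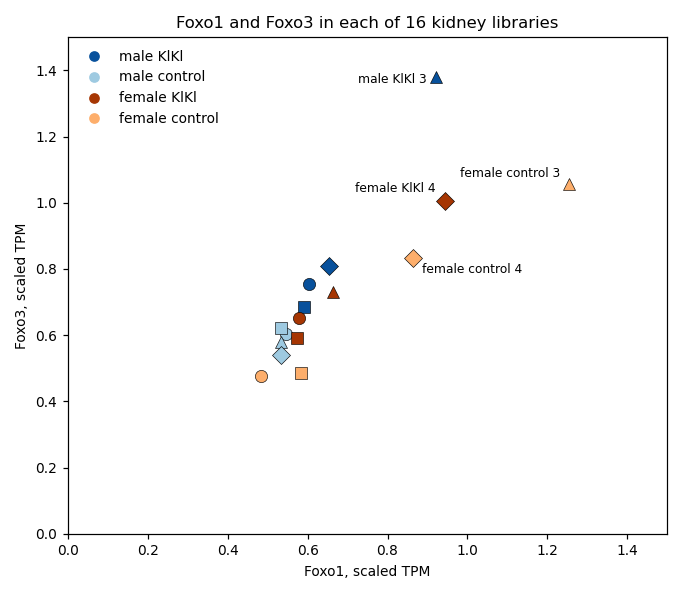
Foxo3 against Foxo1, both in scaled TPM on linear axes, for each of the 16 libraries, with group as colour and replicate number as symbol. The 4 male controls sit together near 0.53 for Foxo1 and between 0.54 and 0.622 for Foxo3, and male KlKl 3 (0.921 and 1.38) and female control 3 (1.26 and 1.06) lie farthest out.

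Among 5437 protein-coding genes with a mean TPM of 1 or more, the genes most like each member over the 16 libraries were named by Pearson's r. Marcks (r = 0.946) and Fam25c (0.934) were most like Igf1, where r fell to 0.846 and 0.821 within groups. Female control 3 held the highest value of Igf1, of Marcks and of Fam25c. Knop1 (0.939) and Rpl14 (0.937) were most like Igf1r. For Insr they were Cebpb (0.897) and Per1 (0.82), and for Foxo3 Cebpb (0.825) and Polr3e (0.818). The limit on mean TPM is on the deposited scale, where long genes are low, so Foxo1 was not among the genes searched. Its r with Foxo3 was 0.865. Foxo1 was most like Ankrd49 (0.908) and Snrk (0.905). Irs1 was most like Slc25a44 (0.895) and Tmem186 (0.894), where r fell to 0.493 and 0.589 within groups. Irs2 was most like H1f0 (0.79) and Rab12 (0.729). Igfbp3 was most like Gimap6 (0.778) and Ccn1 (0.771), where r fell to 0.704 and 0.545 within groups. Igfbp4 was most like Rexo4 (0.937) and Slc35e3 (0.912), and Igfbp5 most like Spry1 (0.827) and Cavin3 (0.806). These are descriptions over libraries that share group, depth and scaling.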

How the data were processed

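Polyadenylated RNA of perfused, flash-frozen kidneys was sequenced from a directional library kit, per the labels' protocols. The authors deposited 1 table of TPM; software (Partek) and build (mm39) are from the submitters' processing notes, and the sources used here do not give the aligner, counting rule or annotation. The table held 0 columns of other samples, and a Kl row listed again with the same values was removed. The deposited TPM sum to 309446 per library and equal (reads + 0.0001) over whole gene length, times a constant. Reads recovered from this relation were whole within 0.1 for 81.17% of values under 20 reads. TPM were divided by median-ratio factors (0.744 to 1.457). Genes with 10 or more recovered reads in at least 4 libraries were tested (17435), on log2(scaled TPM + 0.05), which understates changes of low genes. Limma 3.58.1 in R 4.3.3 fitted group means over 16 libraries with a mean-variance trend (12 residual degrees of freedom), for 6 contrasts, two-sided, with Benjamini-Hochberg adjustment over all genes and a threshold of 0.05. Every adjusted p of a gene is from that fit unless another is named. The fit was tested on simulated data. Exon lengths came from a GENCODE annotation of GRCm38, matched by gene ID.

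Members and lists were chosen with earlier results of these data known. Named were all members, Kl, up to 4 passing genes per pathway list, contrast and direction, and the 2 most similar genes per member among those searched. Gm9747, the cell type markers and Foxo1's library values in the closing section were added after their values were seen. Replicate numbers did not pair libraries: deviations of same-numbered libraries correlated with a median of -0.037 (-0.205 to 0.2). Replicates differed by more than counting error (chi-square per degree of freedom 6.77 to 128.3). Alternatives covered scaling, pseudocount, filters, voom, covariates, subsets and leaving out libraries. Leaving out each library was extended to pathway genes and cell type markers after their values were seen.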

Additional observations from a re-analysis of the deposited data

Results flagged for a closer look

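Of 40 groups of 4 libraries (10 genes in 4 groups), 1 held a library far from the other 3, where chance gives about 1 in 20 groups. Foxo1 in male control 1 had 0.545 scaled TPM, next to 0.534 in each of the other male controls. The group's whole spread was small (SD 0.0055), and male control 1 lay below the lowest male KlKl library, at 0.59.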

How the results depend on the processing

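Of the 10 genes 0 passed in any renal failure contrast under any alternative run, and no difference that passed changed sign. Genes passing over the whole table ranged from 0 to 13 in males (6 as reported), 1 to 8 in females (2), 2 to 10 for the mean of the sexes (9) and 0 to 1 for the difference of the effects (0), so those counts rest on single settings and libraries. Irs1 passed in both sex contrasts, and Igf1 among controls, under every alternative that tested them. The number of members called among controls (3 as reported) was 0 with a filter of 1 TPM, which leaves only Igfbp3, Igfbp4, Igfbp5 and Irs2 tested, and 2 to 4 without single libraries. Among KlKl kidneys (2 as reported) it was 4 on the deposited scale, 1 with the TPM filter, 1 without a filter and 1 to 4 without single libraries, with 4 without female control 3, where Igf1 and Igfbp4 also pass. Genes passing over the table ranged from 3612 (heterozygous controls alone) to 7897 among controls (6849 as reported) and from 2760 to 7715 among KlKl kidneys (4570), with 2944 to 6189 without single libraries. Igf1r among controls did not pass with age as a term (adjusted p = 0.0624), with the contrast's libraries alone (0.109), with heterozygous controls alone (0.21) or without a filter (0.0617). It did not pass without female control 3 (0.073) or any 1 of the 4 male controls (0.0515 to 0.0862). The cause of these changes was not tested, apart from the smaller numbers of libraries or genes.

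With replicate number as a block 1 member passed among KlKl kidneys (Irs1) and 2 among controls. Igf1r among controls then had adjusted p = 0.0523 and Igfbp3 in KlKl 0.054. Replicate numbers did not pair the libraries: 2 of 16 correlated best with their own number. Depth limits Irs1 most, with 17 reads in its lowest library.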
